A study of Arabidopsis thaliana with 19 samples.

Results

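The tubulin genes described here are 7 of the nuclear genes of Arabidopsis thaliana that encode the building blocks of microtubules: the alpha-tubulins TUA1 and TUA6 and the beta-tubulins TUB1, TUB5, TUB6, TUB7 and TUB9. They were chosen by gene name, as tubulins with a probe set of their own in the annotation used here, and make up 7 of the 22746 probe sets tested. Transcripts were measured on 1 Affymetrix array per seedling in 19 single whole seedlings, 2 weeks old and grown on Murashige and Skoog medium. The 5 paternal-excess triploids (3xp) and the 5 maternal-excess triploids (3xm) each carry 3 genome copies, with the additional copy from the father or the mother. The 5 tetraploids (4x) carry 4 copies and the 4 diploids (2x) carry 2. All seedlings had the same age and medium, and the labels name no accession and do not say how the polyploids were made. Each replicate was a separate seedling.

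Alpha-tubulin and beta-tubulin pair into dimers, which assemble end to end into the hollow microtubule. In plant cells the microtubules beneath the plasma membrane guide the deposition of cellulose and so the direction of growth, while in dividing cells they form the preprophase band, the spindle and the phragmoplast that builds the new wall. Arabidopsis makes both subunits from small families of nearly identical genes whose members differ in where and when they are used.

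Levels are the deposited log2 values of RMA, a method that gives every array nearly the same distribution. A difference is the first-named group minus the second on that log2 scale, ± SE, so that 1 unit is a doubling. Because of this scaling a level is relative to the rest of the transcriptome and is no amount per cell or per genome copy. In whole seedlings, fewer cells of a type and less RNA per cell cannot be told apart. The array medians lay between 5.80 and 5.89, and no array duplicated another (the closest pair differed by a root mean square of 0.231). Seedling 3xm 4 stood apart, since genes of chromosome 4 were shifted upward there by a median of 0.125, against 0.00167 in the next highest seedling. TUA6 and TUB9 lie on chromosome 4, so their values are also given without it, as are those of TUB7, which was high in that seedling. TUA1, TUB1 and TUB5 lie on chromosome 1, TUB7 on chromosome 2 and TUB6 on chromosome 5. A further probe set is assigned to 2 tubulin genes at once and was not used, and the 10 other loci of the tubulin list have no probe set of their own in the annotation used here. Tubulin transcripts are alike in sequence, and how far the 7 probe sets also record transcripts of the other members was not tested.

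The labelled tissue was checked against its markers. The 1 measured leaf marker, RCA (Rubisco activase), lay between 13.72 and 13.98 over all 4 groups, near the top of the array's scale (highest value 14.2). The 1 measured pollen marker, the pollen actin ACT12, lay between 2.99 and 3.53, below the limit of 4.07 that marks the dimmest 30% of probe sets. Root markers were present, with a mean over PYK10, EXPA7, EXPA18 and XTH26 of 7.86 to 8.70 in paternal-excess triploids, 6.76 to 8.82 in maternal-excess triploids, 8.37 to 9.37 in tetraploids and 7.36 to 7.94 in diploids. One of these 4, the wall enzyme XTH26, was called higher in tetraploids, with 8.00 ± 0.54 (SD, n = 5), than in diploids, with 5.38 ± 0.45 (SD, n = 4; difference 2.62 ± 0.523, limma, adjusted p = 0.0172). PYK10 (0.22 ± 0.0889), EXPA7 (0.85 ± 0.475) and EXPA18 (1.11 ± 0.394) were not called in this comparison, where 0.958% of all probe sets were. The part of root content in the tubulin values was not tested.

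None of the 7 tubulin genes differed between any of the ploidy groups beyond the spread of the seedlings. The moderated F test of limma over the 4 groups called 0 of 7 members, with adjusted p between 0.843 and 0.972, where it called 0.769% of all probe sets. The members' unadjusted p in this test lay between 0.389 and 0.86, so 0 of 7 were under 0.05, against 10.4% of all probe sets. No pair of groups was separated for any member, as the plot of values by seedling shows.

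**Figure D1:**
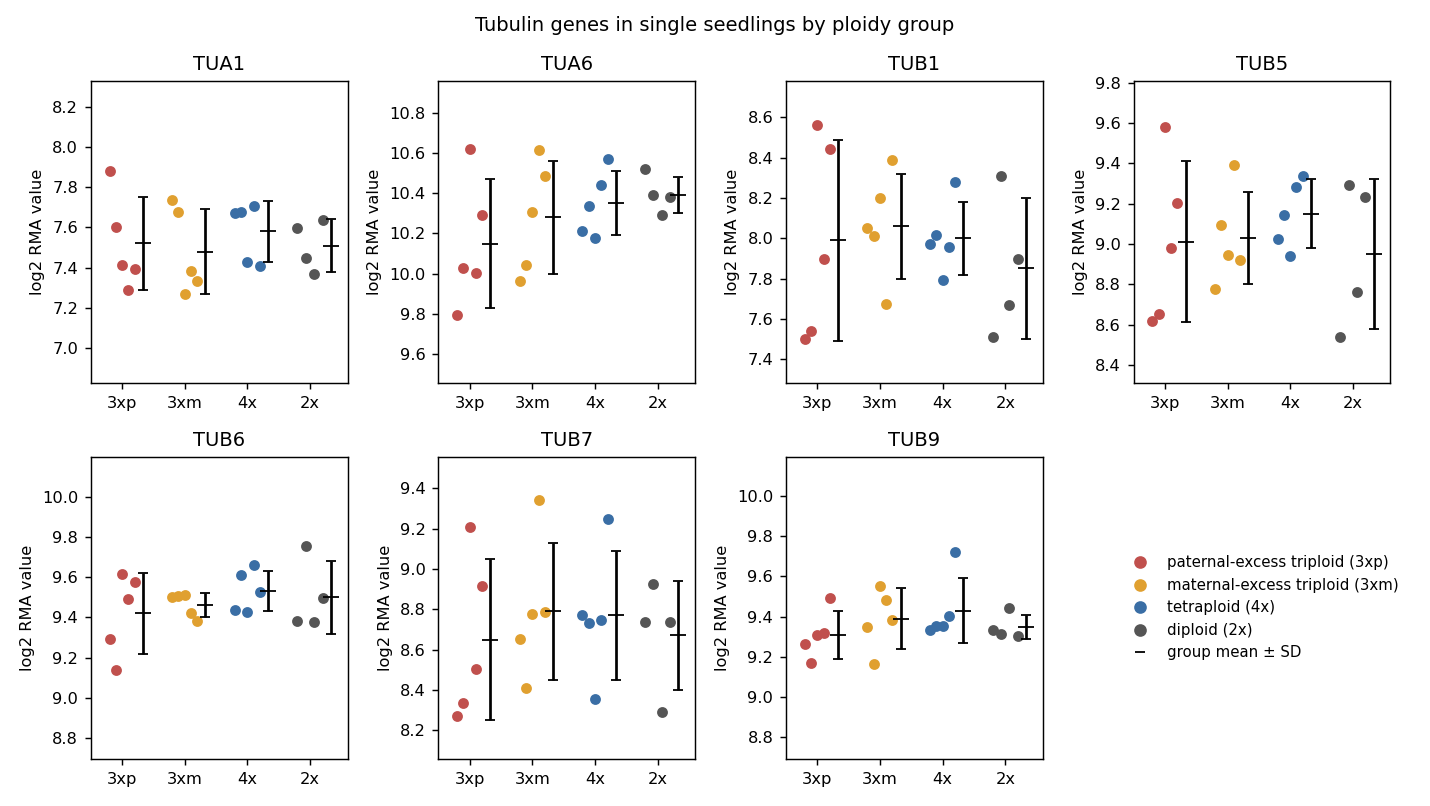
Log2 RMA value (y axis, the same span of 1.5 units in every panel) of each tubulin gene in every seedling, by ploidy group on the x axis; points are seedlings and the bars beside them the group mean ± SD (n = 5, 5, 5 and 4). The groups overlap in every panel, and the paternal-excess triploids span from the lowest to the highest seedling of TUA6 and TUB1.

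TUA6 is an alpha-tubulin used throughout vegetative tissue, and its fusion to a fluorescent protein is a standard marker of plant microtubules. It had values of 9.79, 10.03, 10.62, 10.00 and 10.29 in paternal-excess triploids, 9.96, 10.04, 10.31, 10.62 and 10.49 in maternal-excess triploids, 10.21, 10.34, 10.18, 10.44 and 10.57 in tetraploids and 10.52, 10.39, 10.29 and 10.38 in diploids. The diploids were the most uniform group, and each polyploid group held seedlings above and below all 4 of them. Paternal-excess triploids averaged 10.15 ± 0.32 (SD, n = 5) and diploids 10.39 ± 0.09 (SD, n = 4). This difference of -0.25 ± 0.152 was the largest of any member in any of the 6 comparisons of groups and had the smallest p (limma, adjusted p = 0.554, unadjusted p = 0.119). Maternal-excess triploids averaged 10.28 ± 0.28 and tetraploids 10.35 ± 0.16 (SD, n = 5 each), so the group means ranked, from lowest to highest, as paternal-excess triploids, maternal-excess triploids, tetraploids and diploids, with no neighbours differing beyond their spread. Without seedling 3xm 4 the difference of maternal-excess triploids from diploids was -0.19 ± 0.15, against -0.11 ± 0.152 with it (limma, adjusted p = 1 and 0.999).

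TUA1 is the other alpha-tubulin measured and is known for its preferential use in pollen. Its values were 7.88, 7.60, 7.41, 7.29 and 7.39 in paternal-excess triploids, 7.73, 7.68, 7.27, 7.38 and 7.34 in maternal-excess triploids, 7.67, 7.68, 7.43, 7.70 and 7.41 in tetraploids and 7.60, 7.45, 7.37 and 7.64 in diploids. All 4 groups overlapped, and both triploid groups held the lowest seedlings. Group means lay between 7.48 ± 0.21 (maternal-excess triploids, SD, n = 5) and 7.58 ± 0.15 (tetraploids, SD, n = 5), with 7.52 ± 0.23 in paternal-excess triploids and 7.51 ± 0.13 in diploids. Paternal-excess triploids minus diploids gave 0.00 ± 0.123, with a 95% interval of -0.25 to 0.26.

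TUB1 is a beta-tubulin known for its use in roots and for lower transcript in light-grown than in dark-grown seedlings. The seedlings had 7.50, 7.54, 8.56, 7.90 and 8.44 in paternal-excess triploids, 8.05, 8.01, 8.20, 7.67 and 8.39 in maternal-excess triploids, 7.97, 8.01, 7.79, 7.96 and 8.28 in tetraploids and 7.51, 8.31, 7.67 and 7.90 in diploids. The paternal-excess triploids alone covered the full span of the 19 seedlings, 1.06 units. The mean was highest in maternal-excess triploids, at 8.06 ± 0.26 (SD, n = 5), then 8.00 ± 0.18 in tetraploids, 7.99 ± 0.50 in paternal-excess triploids and 7.85 ± 0.35 in diploids (SD, n = 4). Maternal-excess triploids minus diploids gave 0.22 ± 0.212 (limma, adjusted p = 0.999), with a 95% interval of -0.23 to 0.66 whose upper bound was the farthest from 0 of all 42 intervals.

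TUB5 is a beta-tubulin of vegetative tissue. It had values of 8.62, 8.65, 9.58, 8.98 and 9.20 in paternal-excess triploids, 8.78, 9.09, 8.94, 9.39 and 8.92 in maternal-excess triploids, 9.03, 9.14, 8.94, 9.28 and 9.34 in tetraploids and 8.54, 9.29, 8.76 and 9.23 in diploids. The diploids fell into a lower and a higher pair, and all 5 tetraploids lay above the lower pair. Tetraploids averaged 9.15 ± 0.17 (SD, n = 5) and diploids 8.95 ± 0.37 (SD, n = 4), a difference of 0.19 ± 0.19 (limma, adjusted p = 0.751). The triploids lay between them, at 9.01 ± 0.40 with paternal excess and 9.03 ± 0.23 with maternal excess.

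TUB6 is a beta-tubulin known for a fall of its transcript in the cold. Its values were 9.29, 9.14, 9.61, 9.49 and 9.58 in paternal-excess triploids, 9.50, 9.50, 9.51, 9.42 and 9.38 in maternal-excess triploids, 9.44, 9.61, 9.43, 9.66 and 9.52 in tetraploids and 9.38, 9.76, 9.38 and 9.50 in diploids. The maternal-excess triploids were nearly alike, with an SD of 0.06, while the paternal-excess triploids held the lowest seedling and a diploid the highest. Group means lay between 9.42 ± 0.20 (paternal-excess triploids) and 9.53 ± 0.10 (tetraploids), and the largest difference was -0.11 ± 0.094 for paternal-excess triploids minus tetraploids (limma, adjusted p = 1).

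TUB7 is another beta-tubulin of this family. The seedlings had 8.27, 8.33, 9.21, 8.50 and 8.92 in paternal-excess triploids, 8.65, 8.41, 8.77, 9.34 and 8.79 in maternal-excess triploids, 8.77, 8.73, 8.35, 8.75 and 9.25 in tetraploids and 8.74, 8.93, 8.29 and 8.74 in diploids. One seedling stood high in each of the 3 polyploid groups, 3xp 3, 3xm 4 and 4x 5. Means were 8.65 ± 0.40 in paternal-excess triploids, 8.79 ± 0.34 in maternal-excess triploids, 8.77 ± 0.32 in tetraploids and 8.67 ± 0.27 in diploids. The largest difference, paternal-excess minus maternal-excess triploids, was -0.15 ± 0.2 (limma, adjusted p = 0.933). It rests on seedling 3xm 4, without which it was -0.01 ± 0.193 (limma, adjusted p = 0.997). Maternal-excess triploids minus diploids likewise gave -0.02 ± 0.203 without that seedling and 0.12 ± 0.212 with it.

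TUB9 is a beta-tubulin known for its use in pollen. It had values of 9.26, 9.17, 9.31, 9.32 and 9.49 in paternal-excess triploids, 9.35, 9.16, 9.55, 9.48 and 9.38 in maternal-excess triploids, 9.33, 9.35, 9.35, 9.40 and 9.72 in tetraploids and 9.33, 9.31, 9.44 and 9.30 in diploids. The groups overlapped, and seedling 4x 5 lay above all the others. Means were 9.31 ± 0.12 in paternal-excess triploids, 9.39 ± 0.15 in maternal-excess triploids, 9.43 ± 0.16 in tetraploids and 9.35 ± 0.06 in diploids, and the largest difference was -0.12 ± 0.0877 for paternal-excess triploids minus tetraploids (limma, adjusted p = 1). Maternal-excess triploids minus diploids gave 0.01 ± 0.0986 without seedling 3xm 4 and 0.04 ± 0.093 with it.

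Read by comparison, the 7 genes had differences of both signs in the triploids minus the diploids. In paternal-excess triploids minus diploids 3 differences were positive and 4 negative, with a median of -0.0266, against -0.00359 over all probe sets. Limma called 0 of 7, 0 had an unadjusted p under 0.05, and 0 had groups that did not overlap, where these shares over all probe sets were 1.15%, 12.2% and 4.85%. In maternal-excess triploids minus diploids 4 were positive and 3 negative, with a median of 0.0376 (-0.00445 over all probe sets). Limma called 0 of 7, 0 had an unadjusted p under 0.05 and 0 did not overlap, against 0.0352%, 4.33% and 1.37% of all probe sets.

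Tetraploids minus diploids had 6 positive differences and 1 negative, that of TUA6 (-0.05 ± 0.152). The median was 0.0852, against -0.00325 over all probe sets. Limma called 0 of 7, 0 had an unadjusted p under 0.05 and 0 did not overlap, against 0.958%, 12.9% and 7.24% of all probe sets. These comparisons share the 4 diploids, so a high or low diploid moves all 3 together. A line fitted against genome copies, the triploids counting as 3, had a slope that was positive for the same 6 genes and ran from -0.01 ± 0.0777 log2 per copy for TUA6 to 0.10 ± 0.0901 for TUB5. It called 0 of 7 by limma, 0 with an unadjusted p under 0.05, where 0.484% and 12.4% of all probe sets were so called.

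Between the polyploids the paternal-excess triploids had the lower value in most comparisons, by small amounts. Against the tetraploids all 7 differences were negative, between -0.20 for TUA6 and -0.01 for TUB1, with a median of -0.123 (0.0013 over all probe sets). Limma called 0 of 7, 0 had an unadjusted p under 0.05 and 0 did not overlap, against 0.022%, 4.86% and 0.901% of all probe sets. Against the maternal-excess triploids 6 were negative and 1 positive, with a median of -0.0754 (-0.00177 over all probe sets), and the counts were again 0, 0 and 0 of 7 by limma and overlap, against 0.0044%, 6.09% and 0.743%. Maternal-excess triploids minus tetraploids had 5 negative and 2 positive differences with a median of -0.0645 (0.00376 over all probe sets), and counts of 0, 0 and 0 of 7 against 0.0747%, 8.49% and 1.59%. Several pairs of members were correlated over the 19 seedlings, as given further on, so their shared sign is not 7 separate observations.

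**Figure D2:**
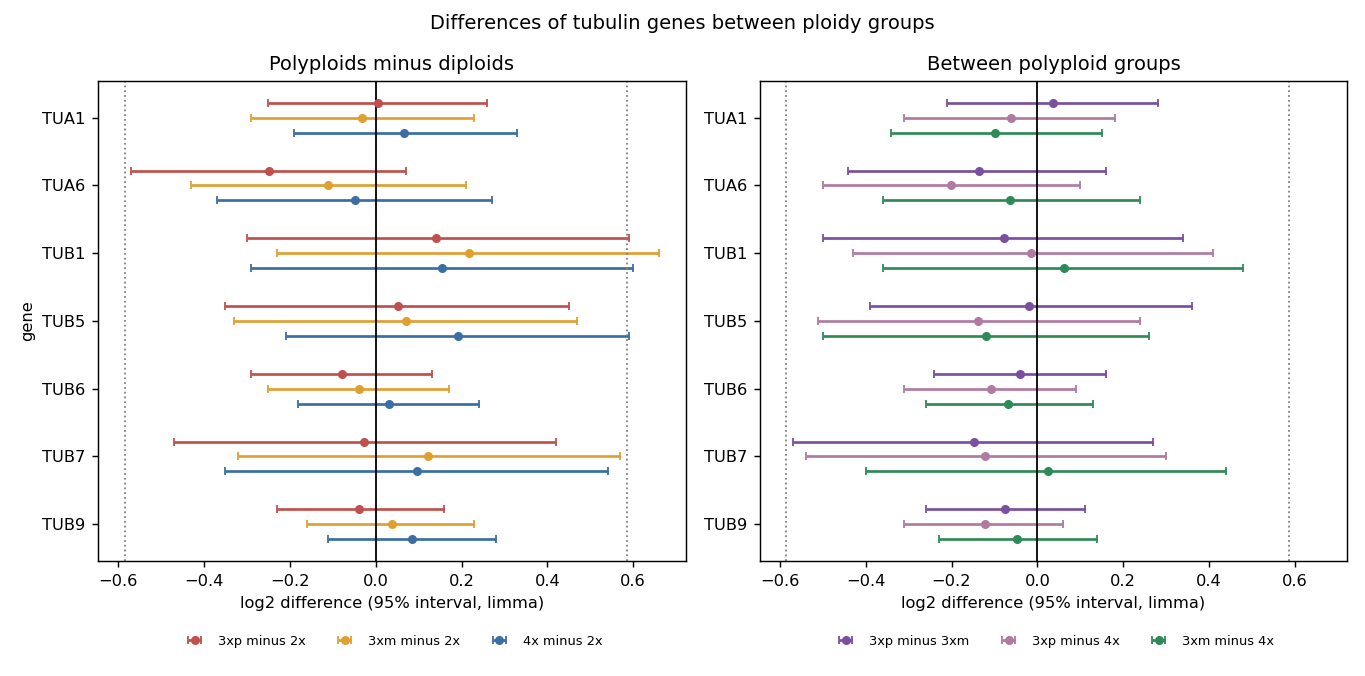
Difference of each tubulin gene (y axis) between groups on the log2 scale (x axis), with its 95% interval from limma; the left panel sets polyploids against diploids and the right panel polyploid groups against each other. Dotted lines mark a fold of 1.5 either way; all 42 intervals cover 0 and 38 lie within the lines.

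The precision of these comparisons is given by the intervals of the differences. All 42 intervals, 7 genes by 6 comparisons, covered 0 and lay within a doubling or halving, and 38 lay within a fold of 1.5 (0.58 on the log2 scale). The widest reach upward was 0.66, a fold of 1.58, for TUB1 in maternal-excess triploids minus diploids. The widest reach downward was -0.57, a fold of 0.674, for TUA6 in paternal-excess triploids minus diploids, and TUB7 in paternal-excess minus maternal-excess triploids also reached -0.57. A p above the threshold does not show that the levels were equal.

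The genes differed among themselves in how much seedlings of the same group varied. TUB1 and TUB7 had a within-group SD of 0.341 each and TUB5 one of 0.303. At these levels the median probe set had 0.187 to 0.189, and 83.7%, 86.2% and 81.1% of probe sets within 0.25 units of the level of TUB1, TUB7 and TUB5 had a smaller SD. TUA6 followed with 0.237 and TUA1 with 0.188, both above a median of 0.184 at their level, while TUB6 (0.145) and TUB9 (0.132) varied less than the median probe set at their level (0.19 and 0.191). Differences between group means made up 4.15% (TUB7) to 16.2% (TUA6) of a member's variance over the 19 seedlings, and 16.3% for the median probe set.

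**Figure D3:**
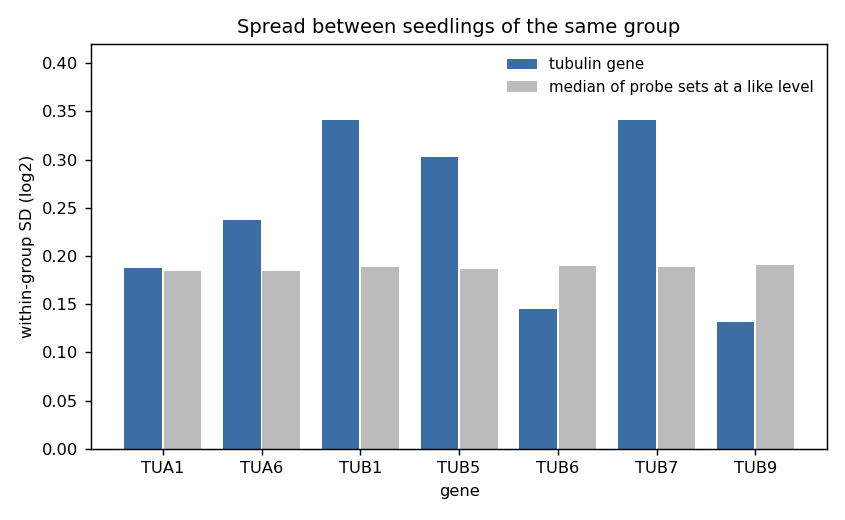
Within-group SD of each tubulin gene over the 19 seedlings (blue) beside the median of probe sets whose mean lies within 0.25 log2 units of it (grey); y axis in log2 units, from 0. TUB1, TUB5, TUB7 and TUA6 exceed the median, TUA1 (0.188 against 0.184) lies close to it, and TUB6 and TUB9 lie below it.

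The paternal-excess triploids were the most spread group for 6 of the 7 genes, TUB9 being the exception, and 29.9% of all probe sets had their largest SD in this group. The median SD of the 7 genes was 0.317 in paternal-excess triploids, 0.234 in maternal-excess triploids, 0.164 in tetraploids and 0.178 in diploids. The medians over all probe sets were 0.175, 0.179, 0.146 and 0.152 in the same groups. No test was made of this difference in spread, and the 7 genes are not independent. Seedling 3xp 1 was the lowest of all 19 for TUA6, TUB1 and TUB7 and the highest for TUA1, and 3xp 2 was the lowest for TUB6. Seedling 3xp 3 was the highest of all for TUA6, TUB1 and TUB5.

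Across the 19 seedlings, TUA6 and the beta-tubulins had positive correlations with each other. TUA1 had a negative Pearson r with all of them, of which only that with TUB9 passed. Of the 21 pairs of members 15 had a positive Pearson r, and the 6 negative ones were all pairs with TUA1. TUA1 with TUB6 had r = -0.14 but rho = 0.07, and r = 0.02 without the 2 seedlings farthest from the median of TUA1. Without those 2, r of TUA1 went from -0.45 to -0.14 with TUA6 and from -0.29 to -0.04 with TUB5. It went from -0.41 to -0.32 with TUB1 and from -0.35 to -0.21 with TUB7. The closest pair was TUA6 with TUB7, with r = 0.80 and rho = 0.78 (permutation test over seedlings, two-sided, raw p = 4e-05 and 0.00016, adjusted over the 21 pairs p = 0.00084 and 0.0032), and r = 0.81 without the 2 seedlings farthest from the median of TUA6. Of the other 8729 genes compared, 0.0916% had as high an r with TUA6 and 0.768% had as high an r with TUB7. TUB5 with TUB7 had r = 0.75 and rho = 0.73 (permutation, raw p = 0.00021 and 0.00061, adjusted p = 0.0022 and 0.0032), and 0.80 without the 2 farthest seedlings. TUB5 with TUB6 had r = 0.71 and rho = 0.74 (permutation, raw p = 0.00062 and 0.00042, adjusted p = 0.0043 and 0.0032), and TUB1 with TUB6 r = 0.67 and rho = 0.74 (permutation, raw p = 0.0015 and 0.00056, adjusted p = 0.0077 and 0.0032), with 0.71 and 0.64 without the 2 farthest seedlings.

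In all 10 pairs passed for r, 9 positive and 1 negative, and 8 for rho, of which 7 passed for both. TUB6 with TUB7 passed for rho alone and narrowly (r = 0.50, rho = 0.54, permutation, adjusted p = 0.055 and 0.05). The other pairs that passed for both were TUB1 with TUB5 (r = 0.65, rho = 0.56), TUB1 with TUB7 (r = 0.56, rho = 0.65) and TUA6 with TUB5 (r = 0.60, rho = 0.59). Their adjusted permutation p were 0.014, 0.033 and 0.024 for r and 0.042, 0.013 and 0.031 for rho, and r was 0.54, 0.45 and 0.47 without the 2 farthest seedlings. The negative pair was TUA1 with TUB9, r = -0.51 and rho = -0.51 (permutation, raw p = 0.023 and 0.028, adjusted p = 0.049 and 0.065), with -0.50 without the 2 farthest seedlings. TUA6 with TUB9 (r = 0.52, rho = 0.40) and TUB7 with TUB9 (r = 0.57, rho = 0.47) passed for r alone, with adjusted permutation p = 0.047 and 0.03. TUB7 with TUB9 had an r of 0.34 without the 2 farthest seedlings and so rests on them. The share of other genes with as high an r differed between pairs. With the first and the second gene it was 0.206% and 0.309% for TUB1 with TUB6. It was 1.39% and 5.98% for TUB1 with TUB7, and 2.74% and 4.2% for TUA6 with TUB5. For TUB7 with TUB9 it was 5.52% and 1.91%, and for TUA6 with TUB9 5.37% and 3.37%. For TUB5 with TUB7 it was 0.79% and 1.23%, for TUB5 with TUB6 1.37% and 0.183%, and for TUB1 with TUB5 0.378% and 2.92%. As low an r as that of TUA1 with TUB9 was held by 4.88% and 4.32%.

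Fewer pairs passed without the paternal-excess triploids. Without these 5 seedlings 0 of the 21 pairs passed over the other 14, and TUA6 with TUB7 had r = 0.70 (permutation, adjusted p = 0.11), TUB5 with TUB7 0.59, TUB5 with TUB6 0.57 and TUB1 with TUB6 0.47. Other pairs were lower still, with r = 0.36 for TUB1 with TUB5 and for TUA6 with TUB5, and 0.25 for TUB1 with TUB7, while TUA6 with TUB9 (0.54), TUB7 with TUB9 (0.57) and TUA1 with TUB9 (-0.58) changed by less than 0.1. TUA6 with TUB1 and with TUB6, at 0.40 over all seedlings, had r = -0.04 and -0.01. TUA1 with TUB6, at -0.14 over all seedlings, had r = 0.27. The count of 0 also reflects the smaller number of seedlings. TUB7 with TUB9 had the same r of 0.57 over 19 and over 14 seedlings, with adjusted permutation p = 0.03 and 0.16. Within single groups, too small for a correlation (n = 5 or 4), 4 of the 10 pairs had the opposite sign in maternal-excess triploids and 3 in diploids, against 0 in paternal-excess triploids and 0 in tetraploids. With the group means subtracted 12 pairs passed, among them all 10, and r of TUA6 with TUB7 was 0.85, so for this pair the relation was as close within groups as over all seedlings. Without seedling 3xm 4, 9 pairs passed, 8 of them among the 10. TUA1 with TUB9 (r = -0.49) and TUA6 with TUB9 (r = 0.49) no longer passed (permutation, adjusted p = 0.063 each). TUB6 with TUB7 passed instead (r = 0.62, permutation, adjusted p = 0.018). Values of 1 array share its RNA preparation and hybridisation, and many genes varied together. The permutations treat all seedlings as exchangeable, and the part that same-numbered seedlings may share in these correlations was not tested. Subtracting group means ties the values of a group to each other, which these permutations do not take into account. The counts of 12 and 10 are therefore not directly comparable. The median of r without its sign between a member and the 8730 genes compared was 0.18 (TUB6) to 0.26 (TUB5 and TUB7). Of those genes 5.21% (with TUB6) to 17.8% (with TUB5) had an r above 0.5 in size, and 16.5% with TUB7.

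**Figure D4:**
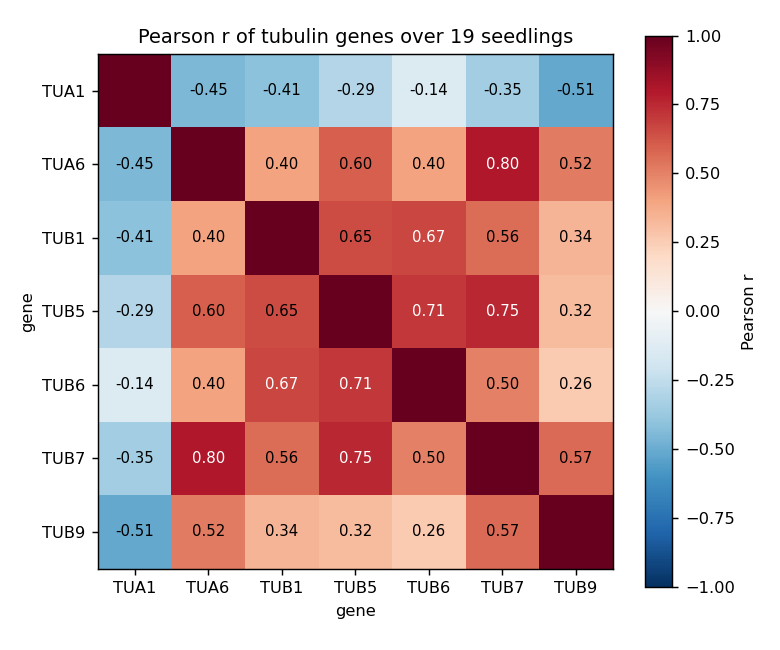
Pearson r over 19 seedlings for each pair of tubulin genes (both axes list the genes), from -1 in blue to 1 in red. TUA6 and the 5 beta-tubulins are positive with each other, from 0.26 to 0.80, and r of TUA1 with them runs from -0.51 (TUB9) to -0.14 (TUB6).

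**Figure D5:**
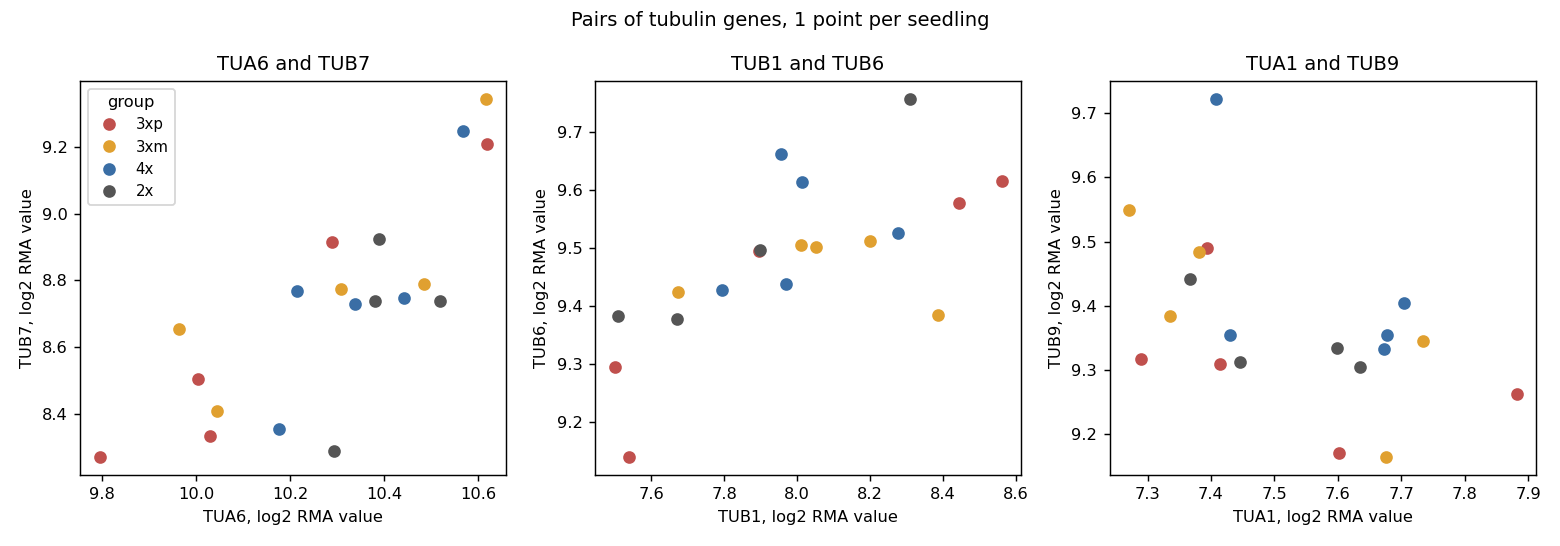
Log2 RMA values of 3 pairs of tubulin genes, with 1 point per seedling and colour for the ploidy group: TUA6 (x) and TUB7 (y), r = 0.80; TUB1 and TUB6, r = 0.67; TUA1 and TUB9, r = -0.51. The lowest point of the first panel is seedling 3xp 1, and seedlings 3xp 3, 3xm 4 and 4x 5 form its upper right corner.

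For each member the 3 genes with the most similar pattern were listed by Pearson r over the 19 seedlings, as a description with no test, among 8730 other genes with a probe set of their own outside the dimmest 30%. TUB7 had the closest partners. They were UBC20, a ubiquitin-conjugating enzyme (r = 0.92, rho = 0.84), AT5G45700 (0.91, 0.89) and AUR3, an Aurora kinase (0.91, 0.89). Aurora kinases act in mitosis. For TUB5 they were AT1G04680 (0.88, 0.88), AT3G14220 (0.87, 0.87) and AT3G18050 (0.87, 0.88). For TUA6 they were AT1G35780 (0.85, 0.84), AT4G32390 (0.84, 0.81) and AT3G61820 (0.84, 0.84), and after subtracting group means IQD26, of the IQ-domain family, came first (0.93, 0.92).

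For TUB1 the closest were AT5G19340 (0.85, 0.83), AT1G62020 (0.84, 0.80) and AT1G29980 (0.83, 0.81). For TUB6 they were AT1G29980 (0.80, 0.78), AT5G11420 (0.80, 0.74) and DRT100 (0.80, 0.81), so that AT1G29980 was listed for both. TUA1 was closest to AT5G64880 (0.83, 0.80), AT1G01490 (0.81, 0.87) and AT2G20725 (0.78, 0.72), and TUB9 to ATCES1 (0.80, 0.69), AT4G37660 (0.77, 0.82) and AT3G51100 (0.77, 0.88). No tubulin was among the 3 of another tubulin; the nearest was TUB7, at rank 9 for TUA6. Subtracting group means kept 2 of 3 genes for TUA1, TUB1, TUB6 and TUB7 and 1 of 3 for TUA6, TUB5 and TUB9. None of the 30 genes listed either way was called in any of the 6 comparisons of groups by limma, where 0.0044% to 1.15% of all probe sets were called.

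Beside the members, 8 lists of 106 loci were set up, and 16 of these loci had a probe set of their own in the annotation used here. The lists cover the microtubule system and cellulose deposition, and also actins and mitosis. Limma called 0 of the 16 in each of the 6 comparisons, where 0.0044% to 1.15% of all probe sets were called, and their differences lay between -0.44 and 0.51. In 6 of 96 values (6.25%) the unadjusted p was under 0.05, within the 4.33% to 12.9% of all probe sets in these comparisons. The largest was SP1L4, of the SPIRAL1-like family that acts on cortical microtubules, with 6.94 ± 0.35 in tetraploids (SD, n = 5) and 6.43 ± 0.22 in diploids (SD, n = 4), a difference of 0.51 ± 0.213 (limma, adjusted p = 0.299). Of the 6 microtubule-associated proteins measured 5 had positive differences in paternal-excess triploids minus diploids and in tetraploids minus diploids, with medians of 0.149 and 0.106, and 3 in maternal-excess triploids minus diploids (median 0.000959). Of the 2 tubulin-folding genes measured, PFI, a tubulin-folding cofactor, had a difference of -0.14 ± 0.0946 and POR, another, one of 0.07 ± 0.118 in paternal-excess triploids minus diploids, neither called. TON1B, which takes part in the preprophase band, had the smallest p of the 96 values. It averaged 7.10 ± 0.04 in paternal-excess and 6.88 ± 0.14 in maternal-excess triploids (SD, n = 5 each), a difference of 0.21 ± 0.0779 (limma, unadjusted p = 0.013, adjusted p = 0.751). The 2 measured kinesins (PAKRP2, a phragmoplast kinesin, and KIN13A), the 2 genes of cellulose deposition (COB and CC1) and the 2 actins (ACT11 and ACT12) did not pass either. CC1, a protein that joins the cellulose synthase complex to microtubules, had the smallest p of its list, -0.22 ± 0.083 in maternal-excess triploids minus diploids (limma, adjusted p = 0.999). The mitosis list had no member with a probe set of its own in the annotation used here.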

How the data were processed

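The authors deposited 1 table of log2 expression values for 19 arrays, made with RMA per the submitters' processing notes; its version is not given in the sources used here. Of 22810 probe sets 64 controls were left out. The platform annotation gives a single gene for 13513 of the rest, named through a TAIR10.1 gene table. Groups, from the sample titles, were tested against each other in a single model of the 4 group means fitted to all 19 arrays by limma 3.58.1 (R 4.3.3), without a block and with eBayes. P-values were adjusted by Benjamini-Hochberg over the 22746 probe sets; a call is an adjusted p under 0.05. The files held log2 values as assumed. The fits were tested on simulated data. Pair correlations used 100000 permutations of the 19 seedlings, free across groups and replicate numbers. No alternative with a replicate block was run for them. The precision is limited by the number of arrays. The members and lists were chosen with earlier results of these data known. All 7 members are named throughout; from each list up to 4 genes that passed were to be named, or else the smallest p; and 3 genes per member by r. Alternatives were only the compared groups, eBayes with trend and robust, no dim probe sets, a further quantile normalization, array weights, a replicate block, a single probe set for each gene, a 1.5-fold minimum and each seedling left out; those of the correlations were added after seeing the data. Same-numbered seedlings of different groups had correlations of their deviations between -0.375 and 0.435, and 11 of these 27 were over 0.1. They were not set against differently numbered seedlings, so whether a number marks a shared batch was not tested. Figures used matplotlib 3.10.9. No tubulin sequences were used here.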

Additional observations from a re-analysis of the deposited data

Results flagged for a closer look

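TUB9 in tetraploid seedling 4x 5 stood apart from the other tetraploids. Its log2 value was 9.72, the nearest tetraploid was at 9.40, and the gap was 0.818 of the group's range, above Dixon's 95% critical value of 0.71 for 5 samples. The same seedling was the highest tetraploid for TUA6 (10.57), TUB1 (8.28), TUB5 (9.34) and TUB7 (9.25) without passing this limit. With 28 sets of gene and group examined, chance flags about 1 in 20.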

How the results depend on the processing

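No tubulin gene was called under any of the alternatives run, 27 for each of the 6 group comparisons and 25 for the F test and the slope, so the counts stayed at 0 of 7, with and without each of the 19 seedlings (lowest 0, highest 0); the lowest adjusted p of any member was 0.295. With the replicate number as a block the count was also 0 of 7 in every comparison. In paternal-excess triploids minus diploids the block lowered the SE of TUA1 from 0.123 to 0.0931 and raised that of TUB7 from 0.212 to 0.218. Whether the numbers mark a shared batch was not tested. Of 49 member differences and slopes 25 kept their sign under every alternative run and 24 did not, none of them called. Several alternatives could not change a difference between groups, such as eBayes with trend and robust or leaving out a seedling of a group not compared. The minimum fold of 1.5 could only remove calls. Calls over all probe sets varied more. For tetraploids minus diploids 218 were called, 451 with only these groups, 1017 with array weights and 147 at a fold of at least 1.5, and 77 to 382 with a seedling left out. For paternal-excess triploids minus diploids these counts were 262, 109, 423, 163 and 107 to 356. For maternal-excess triploids minus diploids 8 were called, 0 with only these groups and 1 to 17 with a seedling left out, and for maternal-excess triploids minus tetraploids 17, with 45 by array weights, 28 by the replicate block, 11 at a fold of at least 1.5 and 6 to 56 with a seedling left out. Paternal-excess triploids gave 1 call against maternal-excess triploids (0 with only these groups, 2 by the replicate block, 1 to 4 with a seedling left out) and 5 against tetraploids (1, 8 and 2 to 5). The F test gave 175 (498 with array weights, 86 to 288 with a seedling left out) and the slope 110 (683, and 25 to 226). The cause was not tested.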
